A study of Mus musculus with 4 samples.

Results

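Fracture callus of RA mice was followed between 4 and 7 days post fracture (dpf) by single-cell RNA sequencing (scRNA-seq), and its course was read gene by gene in 3 compartments of cells. Members were the cells of the libraries RA_4d and RA_7d with 4000 to 50000 unique molecular identifiers (UMIs, each standing for 1 captured mRNA molecule), 2000 to 7000 detected genes and at most 8% mitochondrial UMIs. Of 34038 barcodes in the 4 libraries of the series 25479 passed these limits, 12333 of them in the RA libraries. Haematopoietic cells were those with at least 1 Ptprc UMI and at most 10 Col1a1 UMIs. Endothelial cells had at least 2 Pecam1 UMIs, at least 1 Cdh5 UMI and no Ptprc UMI, and mesenchymal cells had at least 20 Col1a1 UMIs, at least 1 Prrx1 UMI and no Ptprc UMI. These 3 gates held 10744 of the 12333 RA cells. The 5 gate genes are reported as gates only.

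All mice were wild-type, of strain C57BL/6J and 3 months old, and male by the study's methods. RA mice received arthritogenic K/BxN serum and control mice received vehicle. Each library came from 1 pool of callus, of 4 mice by the series text and of 3 by the paper's methods, so that each condition had 1 library and no replicate. No test was possible, and time cannot be told apart from the difference between pools, mice or preparations. Serum was given at fracture and again shortly before the 4 dpf harvest, so time after fracture and time after the last injection cannot be told apart either. The control libraries at 4 and 7 dpf, which share no sample with the RA libraries, were read in the same way and stand beside them.

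A fracture first fills with blood and inflammatory cells. Macrophages and neutrophils then clear debris while mesenchymal progenitors from the periosteum expand, form cartilage through Sox9 and its targets, and replace it with bone under Runx2 and Sp7. Vessels grow in beside them, and osteoclasts resorb mineralised cartilage. K/BxN serum carries antibodies that form immune complexes, which act through Fc receptors, complement and neutrophils to inflame joints.

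RA_4d held 4110 kept cells and RA_7d 8223, with a median of 17631.5 and 16938 UMIs per cell. Within compartments the depth per cell was lower at 7 dpf. The median went from 15109 to 11266.5 UMIs in haematopoietic, from 20322.5 to 13920.5 in endothelial and from 30398 to 24636 in mesenchymal cells. Summed UMIs were 45168572 and 23721578, 9949752 and 19074834, and 22268718 and 96935674 in the same order. The RA libraries shared 20 barcodes, 12 of them among kept cells, and 8 cells of RA_4d and 66 of RA_7d met both the endothelial and the mesenchymal gate and were counted in both. Labels were checked against 8 markers of each lineage that the gates did not use. The summed haematopoietic markers stood at 10920 and 15030 UMIs per 1000000 UMIs of the same sum (CPM) in haematopoietic cells of RA_4d and RA_7d, against 53.2 and 53.4 in mesenchymal cells. Endothelial markers stood at 4279 and 4096 CPM in endothelial cells, and mesenchymal markers at 30630 and 49770 CPM in mesenchymal cells.

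RNA of other cells differed between the libraries and bears on the values that follow. RA_4d stood apart from the other 3 libraries in haemoglobin RNA. The 6 haemoglobin and erythroid markers summed to 31.6, 6.23 and 6.51 CPM in its haematopoietic, endothelial and mesenchymal cells, against 692, 860 and 428 CPM in RA_7d and 439 to 931 CPM over both control libraries. The cells outside the gates of RA_4d held 379 CPM. Rises of haemoglobin genes start from this low RA_4d and are not read as a course of repair. Every value that follows rests on RA_4d and cannot be given without it. RA_7d held more RNA of other lineages. The 8 mesenchymal markers went from 117 to 673 CPM in haematopoietic cells (control, 235 to 484) and from 658 to 4121 CPM in endothelial cells (control, 1195 to 3007). In haematopoietic cells endothelial markers also went from 113 to 267 CPM (control, 127 to 138) and Schwann cell markers from 0.952 to 25.4 CPM (control, 9.15 to 7.05). Col2a1, a collagen of cartilage, went from 2 to 1062 UMIs in haematopoietic cells. The part of free RNA and of joined cells in these values was not tested.

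Mesenchymal cells took a larger share of the callus at 7 than at 4 dpf, and haematopoietic cells a smaller one. In RA_4d 62.5% of kept cells were haematopoietic (2568 of 4110; 95% exact Clopper-Pearson interval, 61.0% to 64.0%), and in RA_7d 23.4% (1926 of 8223; 22.5% to 24.4%). Mesenchymal cells were 18.2% (747 cells; 17.0% to 19.4%) and 47.1% (3873 cells; 46.0% to 48.2%), which is 2.59 times the share. Endothelial cells were 11.2% (462 cells; 10.3% to 12.3%) and 15.1% (1242 cells; 14.3% to 15.9%). Control callus started from like shares, 63.0% haematopoietic, 11.6% endothelial and 17.2% mesenchymal, and stood at 36.7%, 11.9% and 38.7% at 7 dpf. With each cell thinned to 4000 UMIs and the Col1a1 and Pecam1 limits lowered, the RA shares were 49.5% and 18.1% haematopoietic and 16.4% and 41.8% mesenchymal. The limits of at least 1 Ptprc, Cdh5 or Prrx1 UMI were kept and are harder to meet after thinning. The thinned shares therefore compare with each other and not with those above. These intervals, and all below, are 95% intervals that cover counting error only. Because shares sum over what was loaded, they do not give numbers of cells in the callus.

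**Figure D1:**
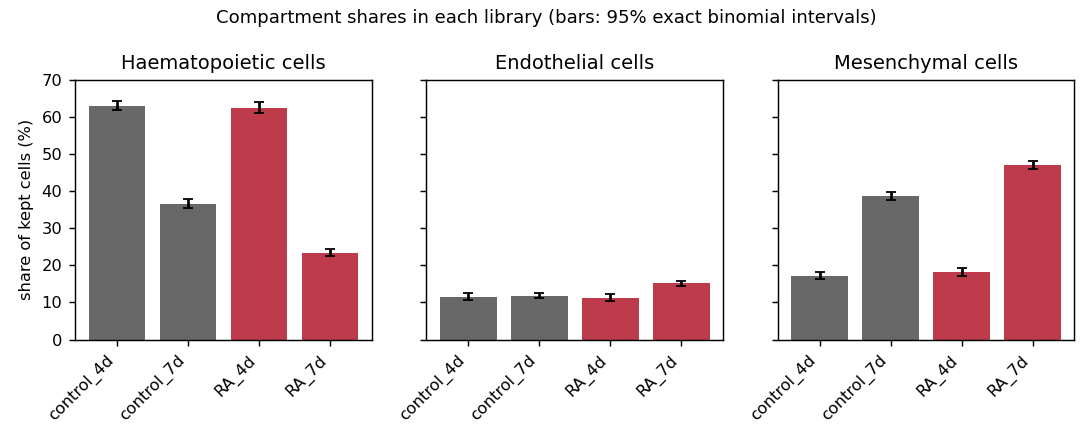
Share of kept cells (%) in the haematopoietic, endothelial and mesenchymal gates for each of the 4 libraries, with 95% exact binomial intervals. The haematopoietic bar drops from 62.5% to 23.4% in the RA libraries and from 63.0% to 36.7% in the controls, while the mesenchymal bar climbs from 18.2% to 47.1% and from 17.2% to 38.7%.

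Gene levels were taken as UMIs summed over the cells of a compartment, in CPM of that sum. A gene is said to have risen or fallen where its level in RA_7d was more than 2-fold above or below that in RA_4d. That is a size and no test. Genes were read where RA_4d and RA_7d together held 50 or more UMIs. Of 14136 such genes in haematopoietic cells 1370 rose (9.69%) and 471 fell (3.33%). Of 13139 in endothelial cells 598 rose (4.55%) and 160 fell (1.22%), and of 16235 in mesenchymal cells 651 rose (4.01%) and 529 fell (3.26%). Most of these genes were sparse or foreign to the compartment. Among genes that reached 50 CPM and whose level was at least 0.25 of the highest of the 3 compartments, 56 rose and 53 fell in haematopoietic, 11 and 10 in endothelial, and 77 and 42 in mesenchymal cells. Of genes read in both courses, 413 of 13954 rose and 107 fell between control_4d and control_7d in haematopoietic cells. In endothelial cells 451 and 68 of 12739 did, and in mesenchymal cells 606 and 447 of 15634. The percentages above and these control counts are the background for each count of list members below.

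In haematopoietic cells most genes of neutrophils and their precursors fell. S100a8, a calcium-binding alarmin that neutrophils hold in bulk, stood at 11120 CPM in RA_4d and 2562 CPM in RA_7d, a 4.34-fold fall (4.30 to 4.38). In control callus it stood at 1121 and 3193 CPM, so that RA_4d was the highest of the 4 libraries and control_4d the lowest. Its partner S100a9 stood at 10190 and 2535 CPM (control, 1067 and 3010). Camp, the cathelicidin of secondary granules, was at 2841 and 675 CPM (control, 221 and 671), and Ngp, another granule protein, at 1916 and 468 CPM (control, 174 and 462). For these 4 genes RA_4d held 9.55 to 12.8 times the level of control_4d, whereas RA_7d held 0.802 to 1.01 times that of control_7d.

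Genes of granulocyte precursors fell as well. Elane, neutrophil elastase, went from 376 to 61.4 CPM (6.13-fold lower, 5.81 to 6.47), and Mpo, myeloperoxidase, from 186 to 29.3 CPM (6.36-fold, 5.88 to 6.88). Prtn3 went from 386 to 75.8 CPM, Ctsg from 193 to 35.1 CPM and Ms4a3, a marker of granulocyte-monocyte progenitors, from 75.1 to 12.5 CPM. Unlike S100a8, these 5 genes were also lower at 7 dpf in control callus, from lower levels (Elane, 49.5 and 26.2 CPM). The stefin genes Cstdc5 (chr16:36359382-36367748, GRCm38) and Stfa1 went from 100 to 1.69 CPM and from 76.1 to 11.1 CPM. They have close copies beside them, so their counts may be split among these.

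Of 13 neutrophil genes 12 fell and none rose, beside 3.33% and 9.69% of all haematopoietic genes read, with a median log2 change of -1.95 against 0.05 over all genes read. In control callus 8 rose and 1 fell, with a median of 1.40. Csf3r, the G-CSF receptor, was the member that did not fall (35.0 and 38.8 CPM). Summed over the list, the level was 28117 CPM in RA_4d and 6758 CPM in RA_7d, against 2865 and 7862 CPM in control callus. With each cell thinned to 4000 UMIs, 29.2% of haematopoietic cells of RA_4d and 8.10% of RA_7d held an S100a8 UMI. In mesenchymal cells, which should lack it, 13.3% and 1.39% did, so S100a8 RNA outside its own cells was also higher in RA_4d. In sums over cells, fewer cells of a type and less RNA per cell cannot be told apart. Mature neutrophils hold few transcripts, and the limit of 2000 genes leaves out cells below it. With at least 1000 UMIs and 500 genes the list's median was -2.33.

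Of 10 monocyte genes 2 fell and none rose. The median was -0.85 in RA and 0.89 in control callus. Chil3, a chitinase-like protein of monocytes and neutrophil precursors, fell from 538 to 168 CPM (control, 62.4 and 131), and Fcnb, ficolin B, from 69.4 to 17.4 CPM (control, 5.51 and 12.9). Ly6c2, which marks inflammatory monocytes, was at 228 and 120 CPM, and Ccr2, the receptor that brings monocytes from blood, at 181 and 199 CPM.

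Several osteoclast genes fell in RA callus and were higher at 7 dpf in control callus. Ctsk, the collagen-cleaving cathepsin of osteoclasts, stood at 432 CPM in RA_4d and 91.0 CPM in RA_7d, 4.74-fold lower (4.54 to 4.96), and at 356 and 554 CPM in control callus. Acp5, tartrate-resistant acid phosphatase, was at 318 and 118 CPM (control, 289 and 422). Mmp9, the gelatinase that osteoclasts and neutrophils share (chr2:164940780-164955850), fell from 223 to 15.5 CPM, 14.4-fold (13.0 to 16.0), against 152 and 235 CPM in control callus. Ocstamp, needed for cell fusion, fell from 19.2 to 4.72 CPM, and Atp6v0d2, a proton pump subunit, from 84.2 to 39.9 CPM. Of 14 genes 6 fell and 1 rose, beside 3.33% and 9.69% of all haematopoietic genes read, with a median of -0.61 (control, 0.59). Tnfrsf11a, the receptor RANK, stayed at 116 and 94.9 CPM. Among macrophages alone, taken as cells with at least 10 C1q UMIs, Ctsk and Acp5 did not fall, with log2 changes of 0.03 and 0.44. Mmp9 still fell there, with -2.43, and the list's median was -0.04. After thinning, 11.25% and 9.61% of haematopoietic cells held a Ctsk UMI, 23.4% and 22.6% an Acp5 UMI, and 10.2% and 2.39% an Mmp9 UMI. With equal weight to each cell Acp5 came to -0.82, under 2-fold.

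Some resident macrophage genes rose in RA callus, and the list's median was of opposite sign in control callus. The macrophages with at least 10 C1q UMIs made up 48.7% of haematopoietic cells in RA_4d (1250 cells; 46.7% to 50.6%) and 58.4% in RA_7d (1125 cells; 56.2% to 60.6%), against 63.5% and 65.2% in control callus. Ccl8, a chemokine of tissue macrophages, rose from 600 to 1786 CPM, 2.98-fold (2.93 to 3.02), and fell from 1322 to 651 CPM in control callus. Selenop, a selenium carrier, rose from 1057 to 2227 CPM (control, 1362 and 1349), and Folr2, a folate receptor of resident macrophages, from 80.4 to 166 CPM (control, 157 and 79.7). The complement genes C1qa, C1qb and C1qc came close to 2-fold, C1qb with 989 and 1940 CPM (control, 1687 and 1879). Mrc1, the mannose receptor, was at 504 and 773 CPM, and Pf4 was lower, at 1418 and 893 CPM. Of 16 resident macrophage genes 5 rose and none fell (median 0.85), beside 9.69% and 3.33% of all haematopoietic genes read. In control callus none rose and 6 fell (median -0.78). The direction in RA callus was the same among C1q macrophages alone, with a median of 0.44, but Selenop was then 0.75 on the log2 scale, under 2-fold.

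Genes of early wound macrophages showed no shared direction. Arg1, arginase 1, was at 62.0 and 36.1 CPM in RA callus and at 291 and 89.8 CPM in control callus, so the control fell from a higher start. Spp1, osteopontin, was at 1212 and 908 CPM, against 5092 and 1618 CPM in control callus. Mmp12, the macrophage elastase, rose from 47.2 to 188 CPM (3.98-fold, 3.77 to 4.19) and from 41.7 to 140 CPM in control callus. Fn1 rose from 210 to 676 CPM (control, 768 and 550). It is higher in mesenchymal cells, whose RNA was more abundant here at 7 dpf, and the part of their RNA was not tested. Of the 14 genes 2 rose, Mmp12 and Fn1, and the median was 0.06.

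Retnla, which alternatively activated macrophages secrete (chr16:48842551-48844461), led the rises with 0.421 CPM in RA_4d and 86.8 CPM in RA_7d (19 and 2059 UMIs). Control callus reached the same level, from 8.62 to 86.4 CPM, and after thinning 1.25% of haematopoietic cells of RA_7d held a UMI. Hpgd, which inactivates prostaglandins, rose from 17.1 to 67.7 CPM and stayed at 30.7 and 30.8 CPM in control callus. Cxcl3, a neutrophil-drawing chemokine, rose from 13.6 to 52.5 CPM (control, 32.0 and 46.7), though its log2 change was 0.74 in C1q macrophages alone. Ikzf2, the transcription factor Helios, rose from 19.7 to 92.9 CPM (control, 7.65 and 25.1).

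Most genes of antigen presentation by MHC class II rose. H2-Aa, a chain of the MHC class II molecule, went from 959 to 2178 CPM (2.27-fold, 2.24 to 2.30), H2-Ab1 from 963 to 2022 CPM and the invariant chain Cd74 from 1970 to 4030 CPM. In control callus these were at 1359 and 1645, 1397 and 1582, and 2732 and 3224 CPM, so RA_4d was the lowest library and RA_7d the highest. After thinning 29.1% and 51.1% of RA haematopoietic cells held an H2-Aa UMI. Of 9 MHC class II genes 6 rose and none fell, beside 9.69% and 3.33% of all haematopoietic genes read, with a median of 1.05 (control, 0.15). The rises were near 2-fold over all haematopoietic cells. With TMM scaling, which moved every haematopoietic log2 change by -0.117, H2-Ab1, H2-Eb1 and Cd74 came to 0.95, 0.95 and 0.92. With equal weight to each cell they came to 0.87, 0.87 and 0.83, where H2-Aa came to 0.997. Among C1q macrophages alone the list's median was 1.51, and with at least 1000 UMIs and 500 genes per cell it was 1.195. Of 11 dendritic cell genes 3 rose, all from few UMIs. Xcr1, a receptor of cross-presenting dendritic cells, was at 3.06 and 7.46 CPM, Itgae at 3.76 and 8.52 CPM, and Ccl22 at 2.41 and 11.6 CPM (control, 16.6 and 5.37).

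Of 13 T and natural killer (NK) cell genes read 9 rose in RA and 7 in control callus. In RA callus 9.69% of all haematopoietic genes read rose. Cd3g, part of the T cell receptor complex, went from 7.11 to 21.5 CPM (3.02-fold, 2.62 to 3.48), Trbc1 from 12.1 to 36.5 CPM and Cd4 from 7.02 to 20.7 CPM. Gzma, granzyme A of cytotoxic cells, was the most abundant after Rora in RA_7d, with 46.8 and 100 CPM. Control callus had 2.42 and 9.74 CPM for Cd3g and 19.3 and 37.8 CPM for Gzma, lower than RA callus at each time point. With TMM scaling Gzma came to 0.98 on the log2 scale. The medians were 1.26 and 1.02. Nkg7, a granule protein of cytotoxic cells, stayed within 2-fold at 49.1 and 66.3 CPM (control, 15.1 and 23.9). Among C1q macrophages alone the list's RA median was 0.98, and Gzma and Nkg7 came to 1.28 and 1.92 on the log2 scale. The part of free RNA and of joined cells in these rises was not tested. Il17a had no UMI in RA_4d and 9 UMIs in RA_7d, too few to be read.

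Of 5 B and plasma cell genes read 3 fell and 1 rose. Pax5, the B cell factor, fell from 138 to 11 UMIs, while Ighm, the heavy chain of IgM, rose from 42.2 to 91.9 CPM. The log2 change of Ighm, 1.12, came to 0.98 with the looser cell filter, to 0.99 with equal weight to each cell and to 1.23 in C1q macrophages alone, and 43.0% of RA_7d haematopoietic cells held an Ighm UMI. Mast cell genes split, with 2 of 5 rising and 2 falling. Cpa3, carboxypeptidase A3, fell from 13.3 to 1.98 CPM, whereas the protease Mcpt4 had no UMI in RA_4d and 137 in RA_7d. That is 87.0-fold higher when set against a floor of 3 counts, and the interval starts at 69.8. After thinning 0.0519% of the 1926 cells held an Mcpt4 UMI, which is 1 cell.

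Inflammatory cytokine genes mostly stayed within 2-fold. Il1b, interleukin-1 beta, was at 145 and 208 CPM (control, 171 and 160), and Tnf at 32.2 and 46.0 CPM (control, 35.4 and 29.7). In both the RA value was the lower at 4 dpf and the higher at 7 dpf. Ccl2, which draws monocytes, was at 331 and 321 CPM in RA callus and at 363 and 147 CPM in control callus. Of 18 genes 3 rose (Il1a, Cxcl1 and Cxcl3) and Il6 fell, from 9.70 to 2.82 CPM. Cxcl1, at 11.6 and 32.6 CPM, stood at 386 and 448 CPM in mesenchymal cells, whose RNA was more abundant here at 7 dpf. The part of mesenchymal RNA in this rise was not tested. The receptors that K/BxN immune complexes engage stayed within 2-fold in all 10 genes read. Fcgr3 was at 164 and 239 CPM, Fcgr2b at 248 and 333 CPM and the C5a receptor C5ar1 at 164 and 199 CPM.

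Among the other haematopoietic lists, haem handling and iron storage genes had a median of 0.00, and 1 of 10 fell, the transferrin receptor Tfrc, from 112 to 54.2 CPM. Fth1, ferritin heavy chain, was at 9983 and 12240 CPM, and Hmox1, the enzyme that opens haem, at 1158 and 595 CPM, while control callus held it at 1503 and 1621 CPM. Interferon response genes had a median of -0.72. Of 15 read, Rsad2 fell, from 51.1 to 22.6 CPM, and the GTPase Iigp1 rose, from 12.7 to 39.3 CPM. Iigp1 stood at 327 and 488 CPM in endothelial cells, whose markers were also higher among haematopoietic cells of RA_7d, and the part of their RNA was not tested. In C1q macrophages alone Tfrc and Iigp1 came to -0.51 and 0.49 on the log2 scale, and Rsad2 to -0.93 with the looser cell filter. Glycolysis genes had a median of -0.53, with 1 of 18 rising and none falling, and immediate early genes a median of 0.54 with none of 12 rising, Egr1 at 61.3 and 109 CPM. Cd68, the pan-macrophage marker, stayed at 332 and 379 CPM.

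**Figure D2:**
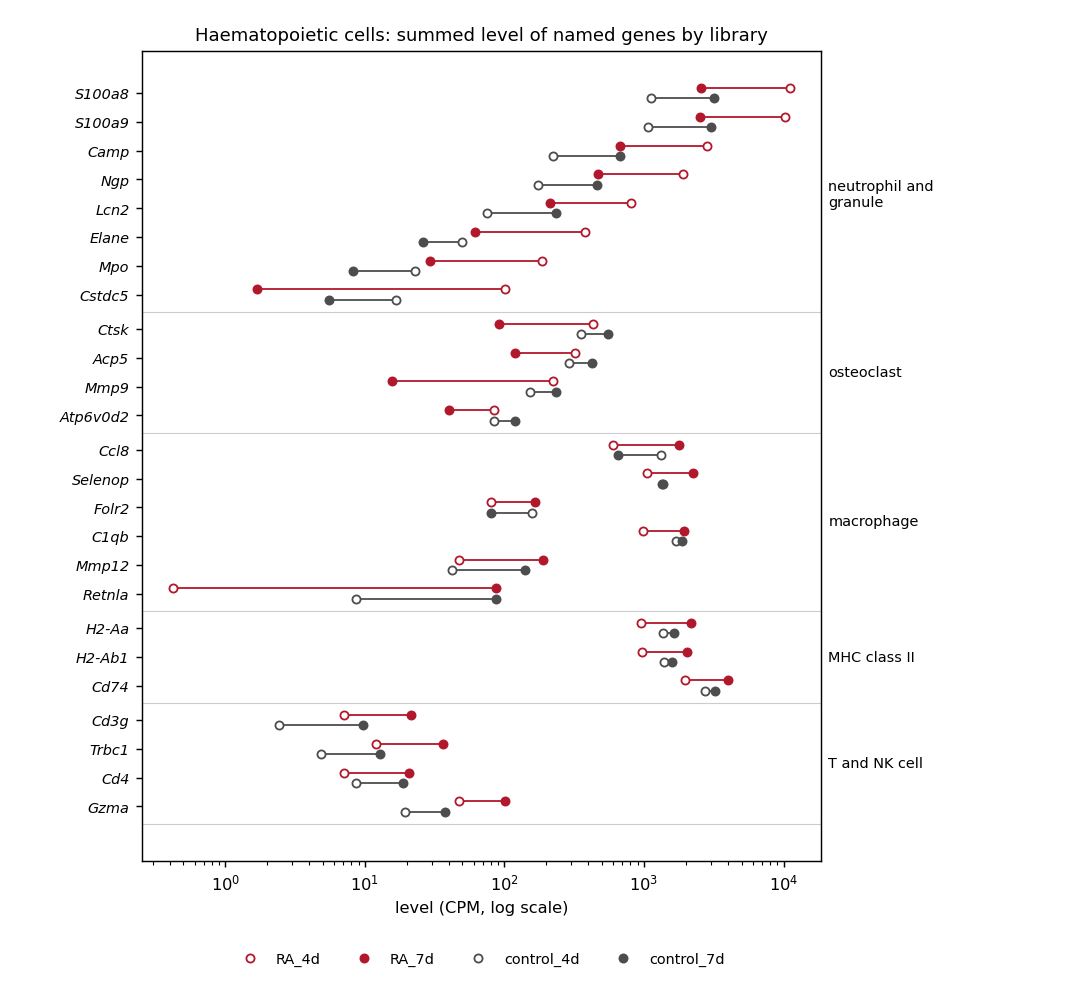
Level (CPM, log scale) of 25 genes in haematopoietic cells, with RA in red and control in grey, open circles for 4 dpf and filled circles for 7 dpf. S100a8 runs from 11120 to 2562 CPM in RA callus and from 1121 to 3193 CPM in control callus. The granule genes Elane and Mpo run downwards in both courses, and Ccl8 runs in opposite directions in the 2 courses.

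Few abundant genes of endothelial cells changed past 2-fold. Apart from the haemoglobin genes, the named rises were Itih5, a hyaluronan-binding protein, from 23.8 to 55.8 CPM (2.34-fold, 2.03 to 2.71), Sgip1 from 21.9 to 50.4 CPM, the peptide-processing Cpe from 32.9 to 73.2 CPM, and the chemokine scavenger Ackr3 from 43.6 to 91.3 CPM. In control callus the ratio of 7 to 4 dpf was 0.919 to 1.23 for these 4 genes. Mesenchymal markers went from 658 to 4121 CPM in the same endothelial sums, and the part of mesenchymal RNA in these rises was not tested. Itih5 and Ackr3 came to 0.85 and 0.80 on the log2 scale with stricter gates, which here ask for at least 5 Pecam1 and 2 Cdh5 UMIs and at most 5 Col1a1 UMIs, and Cpe to 0.74 without cells that held a Prox1 UMI. Camk1d, a calmodulin kinase, fell from 1017 to 466 CPM and Ctla2b, a cathepsin inhibitor, from 116 to 45.4 CPM. Both were also lower in control callus, at 585 and 360 CPM and at 100 and 56.4 CPM.

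The venular activation genes through which leukocytes leave the blood stayed near their 4 dpf level in RA callus. Selp, P-selectin, was at 481 and 508 CPM (1.06-fold, 1.02 to 1.09), and at 370 and 226 CPM in control callus. Vwf, von Willebrand factor, was at 317 and 403 CPM (control, 315 and 167), Sele at 113 and 115 CPM (control, 110 and 71.2) and the chemokine carrier Ackr1 at 192 and 192 CPM (control, 196 and 118). None of 12 genes passed 2-fold, with medians of 0.01 in RA and -0.66 in control callus. For these 4 genes the ratio of RA to control callus was 0.98 to 1.3 at 4 dpf and 1.62 to 2.41 at 7 dpf. Aqp1, a water channel of capillaries and venules, had the like pattern, with 1078 and 1226 CPM against 1019 and 387 CPM.

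Sprouting and arterial genes also stayed within 2-fold, with none of 18 and none of 10 past it. Apln, a tip cell peptide, was at 61.3 and 40.0 CPM, while control callus had 79.5 and 103 CPM. Pgf, placental growth factor, was at 22.6 and 32.6 CPM (control, 26.4 and 65.3), and Kdr, the main VEGF receptor, at 283 and 254 CPM. Fabp4, which carries fatty acids in capillary cells, was at 6216 and 6554 CPM. Of 10 capillary genes Car4 fell (42 and 17 UMIs) and Lpl rose, but Lpl reversed to -0.42 on the log2 scale with stricter gates. None of the 12 junction and receptor genes passed 2-fold.

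Some lymphatic genes rose in each course. Prox1, the lymphatic master regulator, went from 63.5 to 127 CPM (2.01-fold, 1.84 to 2.19; control, 49.0 and 84.8, under 2-fold). The chemokine Ccl21a went from 465 to 947 CPM (control, 265 and 579). Of 8 genes 3 rose and none fell, beside 4.55% and 1.22% of all endothelial genes read, with medians of 0.80 in RA and 0.78 in control callus. Cells with a Prox1 UMI were 14.3% of endothelial cells in RA_4d (66 of 462; 11.2% to 17.8%) and 22.5% in RA_7d (280 of 1242; 20.3% to 25.0%). With cells thinned to 4000 UMIs these shares were 7.36% and 15.1%. With stricter gates Prox1 and Ccl21a came to 0.88 and 0.70, under 2-fold.

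Rsad2 and Ifit2, antiviral genes that interferon induces, fell from 74.0 to 29.5 CPM and from 13.4 to 5.14 CPM, and Ccl2 from 117 to 38.4 CPM. These 3 falls did not hold without suspected doublets. Without the 4% of barcodes with the highest doublet scores the log2 changes were -0.26, -0.81 and -0.58, in place of -1.33, -1.38 and -1.60. Over the 15 interferon genes read the median was -0.30, with none rising.

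Most cartilage genes rose in mesenchymal cells. Col2a1, the main collagen of cartilage (chr15:97975602-98004695), went from 2.15 CPM in RA_4d to 811 CPM in RA_7d (48 and 78634 UMIs), a 376-fold rise (284 to 510). In control callus it went from 2.98 to 1834 CPM. Acan, the large cartilage proteoglycan, rose from 24.4 to 164 CPM, 6.72-fold (6.17 to 7.34), and from 34.0 to 449 CPM in control callus. Hapln1, which links it to hyaluronan, rose from 1.08 to 136 CPM (control, 1.51 and 266), and Col9a1 from 0.943 to 96.4 CPM (control, 1.23 and 183). Col10a1, the collagen of hypertrophic chondrocytes (chr10:34389981-34397085), rose from 2 to 7806 UMIs, 0.0898 to 80.5 CPM, against 0.0350 and 162 CPM in control callus. Matn1, with no UMI in RA_4d and 8.91 CPM in RA_7d, was 66.2-fold higher when set against a floor of 3 counts.

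Of 21 chondrogenic genes 16 rose in RA and 18 in control callus, and none fell in either, beside 4.01% rising and 3.26% falling of all mesenchymal genes read in RA callus. The medians were 3.91 and 5.08, beside -0.01 and 0.09 over all genes read. At 7 dpf Col2a1, Acan, Hapln1, Col9a1, Snorc and Col10a1 each stood in RA_7d at 0.365 to 0.526 of the control_7d level. Outside this range, the cartilage collagen Col9a3 stood at 136 CPM in RA_7d and 235 CPM in control_7d, and Sox5 was higher in RA_7d. These values hold for gated cells, and the gate left out part of the cartilage RNA. In cells outside the gates Col10a1 stood at 331 CPM in RA_7d and 369 CPM in control_7d. There Col2a1 stood at 642 and 1281 CPM and Acan at 154 and 342 CPM. Sox9, the regulator of these genes, was at 105 and 100 CPM in RA callus (1.05-fold lower, 1.00 to 1.10) and at 70.5 and 159 CPM in control callus. Sox6 rose from 16.0 to 52.6 CPM (control, 14.3 and 105), and Sox5 was at 116 and 181 CPM (control, 173 and 157). Pth1r, the parathyroid hormone receptor, was at 39.0 and 55.1 CPM (control, 32.7 and 114).

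Several bone genes rose in both courses. Ibsp, bone sialoprotein, went from 57.0 to 215 CPM (3.77-fold, 3.56 to 3.99), whereas control callus went from 4.62 to 858 CPM. RA_4d therefore held more Ibsp than control_4d, and RA_7d less than control_7d. Alpl, the phosphatase of mineralising cells, rose from 10.6 to 40.2 CPM (control, 4.83 and 89.9). Bglap, osteocalcin, went from 6 to 139 UMIs, 0.269 and 1.43 CPM, against 0.105 and 19.4 CPM in control callus, and its reads may be shared with the copy Bglap2. Runx2, the osteoblast regulator, was at 166 and 135 CPM in RA and at 96.6 and 228 CPM in control callus, and Spp1 at 446 and 232 CPM and at 202 and 512 CPM. The RA log2 change of Spp1, -0.94, came to -0.22 without the highest doublet scores and to 0.09 without the cells counted as chondro-osteogenic in the next paragraph. Sp7 was at 1.75 and 3.37 CPM (control, 0.560 and 8.90). Of 16 osteogenic genes read 5 rose and none fell in RA callus (median 0.28), and 9 rose in control callus (median 1.17).

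Cells that carried these transcripts were counted as well. Mesenchymal cells with at least 5 Col2a1 UMIs, at least 5 Ibsp UMIs or an Sp7 UMI, called chondro-osteogenic here, were 4.69% in RA_4d (35 of 747; 3.29% to 6.46%) and 5.50% in RA_7d (213 of 3873; 4.80% to 6.27%). In control callus they were 1.49% (14 of 943; 0.814% to 2.48%) and 14.0% (416 of 2974; 12.8% to 15.3%). These shares do not part cartilage cells from bone cells, so like shares need not mean like cells. Over all mesenchymal cells Col2a1 held 48 UMIs in RA_4d and 78634 in RA_7d, while Ibsp stood at 57.0 and 215 CPM. The limits were set on unthinned cells, with a median of 30398 UMIs in RA_4d and 24636 in RA_7d. Without the chondro-osteogenic cells the median of the chondrogenic list was 0.54 in RA callus.

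Many fibroblast precursor genes rose in RA callus and fell in control callus. Pi16, which marks adventitial fibroblasts with progenitor properties, stood at 50.6 CPM in RA_4d and 199 CPM in RA_7d (3.92-fold higher, 3.70 to 4.17), and at 153 and 42.3 CPM in control callus. Dpp4, of the same cells, was at 18.4 and 56.9 CPM (control, 56.2 and 13.9), and the sialomucin Cd34 at 118 and 302 CPM (control, 294 and 126). Clec3b, tetranectin, was at 190 and 551 CPM (control, 512 and 193), and Sema3c, a guidance molecule, at 48.2 and 212 CPM (control, 176 and 85.2). For these 5 genes RA_7d stood at 1.01 to 1.3 times control_4d, which itself stood at 2.5 to 3.65 times RA_4d. These ranges are of the 5 genes only. Ly6a, for 1, stood at 674 CPM in RA_7d, below the 1037 CPM of control_4d. Dpt, dermatopontin, rose from 307 to 796 CPM (control, 572 and 450). After thinning, 8.17% and 23.6% of RA mesenchymal cells held a Pi16 UMI, and 28.1% and 54.5% a Cd34 UMI.

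Of 18 genes of this list 8 rose and none fell in RA callus (median 0.94), beside 4.01% and 3.26% of all mesenchymal genes read. In control callus none rose and 13 fell (median -1.36). Ly6a, the stem cell antigen Sca-1, stayed within 2-fold at 504 and 674 CPM, while it fell from 1037 to 353 CPM in control callus. Cxcl14, a chemokine of reticular fibroblasts, did not join the rise, with 327 and 178 CPM. The list's median was 0.92 without chondro-osteogenic cells and 0.90 to 0.97 under each other alternative but a pseudocount of 10 CPM (0.86) and the looser cell filter (1.38). Genes of other lists moved alike: Tnxb, tenascin X, rose from 106 to 260 CPM (control, 276 and 84.5), and Sfrp4, a secreted Wnt antagonist, from 56.4 to 233 CPM (control, 191 and 75.3).

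Most genes of the matricellular, collagen and elastic fibre lists stayed within 2-fold. Col3a1 was at 10640 and 20790 CPM (1.95-fold, 1.95 to 1.96; control, 15480 and 12940), and Col5a3 rose from 263 to 682 CPM. Of 14 matricellular genes 3 rose and 1 fell, of 14 collagen genes 1 rose, and of 14 elastic fibre genes none rose and Ltbp2 fell, with Eln, elastin, at 290 and 503 CPM. Acta2, smooth muscle actin, fell from 382 to 119 CPM (3.21-fold, 3.12 to 3.30), where control callus had 492 and 424 CPM. Ccn2, a secreted matricellular protein, fell from 130 to 62.3 CPM (control, 82.0 and 85.8) and Ltbp2, which binds elastic fibres, from 138 to 48.3 CPM (control, 78.6 and 76.9). The summed pericyte and smooth muscle markers went from 512 to 276 CPM in these cells, but that sum includes Acta2. The markers other than Acta2 did not fall as a sum. The part of pericytes and smooth muscle cells in the fall of Acta2 was not tested. Postn, periostin, was at 2712 and 4039 CPM with like values in control callus (2796 and 4200). Tnc and Tnn, tenascins of the callus, were at 284 and 226 CPM and at 98.7 and 74.5 CPM, whereas control callus went from 294 to 533 CPM and from 111 to 256 CPM.

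Prg4 and Angptl7 fell in both courses. Prg4, lubricin (chr1:150449412-150466165), went from 608 to 135 CPM (4.51-fold, 4.40 to 4.62) and from 720 to 108 CPM in control callus. Angptl7 went from 83.7 to 9.38 CPM and from 53.9 to 5.97 CPM. Of 8 tendon genes, with a median of 0.00, 1 rose, Tppp3, a marker of sheath cells, from 23.5 to 104 CPM. Fabp5, a fatty acid carrier, fell from 191 to 50.2 CPM (control, 196 and 244), and Cyp1b1 from 160 to 54.2 CPM (control, 64.9 and 36.0).

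Stromal inflammatory genes went in several directions. Cxcl5, a neutrophil chemokine, fell from 289 to 101 CPM (2.86-fold, 2.77 to 2.95), the acute-phase gene Saa3 from 367 to 138 CPM and the pentraxin Ptx3 from 282 to 115 CPM. At 4 dpf RA callus held more of each than control callus, which had 132, 144 and 172 CPM. The complement component C3 was at 712 and 847 CPM in RA callus and fell from 696 to 167 CPM in control callus. Il6 was at 50.9 and 37.5 CPM (control, 44.9 and 15.3), and Cxcl12, a homing signal for leukocytes and progenitors, at 955 and 481 CPM (control, 430 and 285). Ccl8 was higher as well. Its level in haematopoietic cells was far above that in mesenchymal cells, and the part of haematopoietic RNA was not tested. Of 20 genes 1 rose and 4 fell in RA callus (median -0.11), and none rose and 6 fell in control callus (median -0.78).

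Of 4 genes that couple the stroma to osteoclasts 1 fell and 1 rose. Tnfsf11, the osteoclast cytokine RANKL, fell from 52.6 to 22.1 CPM (2.39-fold, 2.22 to 2.56), and its decoy Tnfrsf11b rose from 5.39 to 12.2 CPM (0.95 on the log2 scale without chondro-osteogenic cells). In control callus Tnfsf11 was at 17.6 and 29.6 CPM and Tnfrsf11b at 8.44 and 16.8 CPM. Csf1 was at 128 and 71.6 CPM (control, 109 and 53.4). Of 17 matrix protease and inhibitor genes 2 rose and 1 fell. Mmp13, the collagenase of cartilage turnover, rose from 55.9 to 155 CPM (control, 15.1 and 126). Its log2 change of 1.48 came to 3.62 without chondro-osteogenic cells.

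Rbpj, the transcription factor of the Notch pathway on which the study centred, was level in mesenchymal cells, with 110 CPM in RA_4d and 113 CPM in RA_7d (1.03-fold, 0.985 to 1.07). In control callus it was at 123 and 107 CPM. The paper reports more of it in RA than in control callus, most of all in uncommitted progenitor cells. That is another contrast and a narrower set of cells than the course over time given here. After thinning 34.3% and 34.8% of RA mesenchymal cells held an Rbpj UMI. The target Hes1 was at 302 and 281 CPM. Of 17 Notch genes 2 fell (Notch4, from 2.74 to 0.856 CPM, and Heyl, from 16.4 to 7.14 CPM) and none rose, with a median of -0.10. Heyl came to -0.72 on the log2 scale without chondro-osteogenic cells. In haematopoietic cells Rbpj was at 246 and 336 CPM (control, 307 and 226). Dnmt3b, the DNA methyltransferase of the study, was sparse, at 4.98 and 4.58 CPM in mesenchymal cells, and Ikbkb was at 21.2 and 19.3 CPM.

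In mesenchymal cells BMP ligands and antagonists had a median of 0.00 with 3 of 16 rising, all sparse, among them Bmp3 from 1.30 to 5.74 CPM. TGF-beta genes had a median of -0.12 and none of 10 rose, with the receptor Tgfbr2 at 165 and 305 CPM. Of 8 Wnt antagonists read 3 rose and 1 fell, with a median of 0.33 (control, -0.94), which came to 0.97 with the looser cell filter and to -0.20 without chondro-osteogenic cells. Sfrp1 fell from 478 to 144 CPM (3.31-fold, 3.23 to 3.39; control, 303 and 180) and Sfrp2 was at 1247 and 768 CPM, whereas Sfrp4 rose. Glycolysis genes were lower in RA callus (median -0.60) than in control callus (median -0.05), with 2 of 18 falling, Pgk1 from 196 to 91.6 CPM and the enolase Eno1 from 129 to 58.1 CPM. Interferon genes had a median of -0.36, with Ifit3 the 1 of 15 to fall (-0.42 on the log2 scale with the looser cell filter), and none of the 12 immediate early and heat shock genes passed 2-fold.

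**Figure D3:**
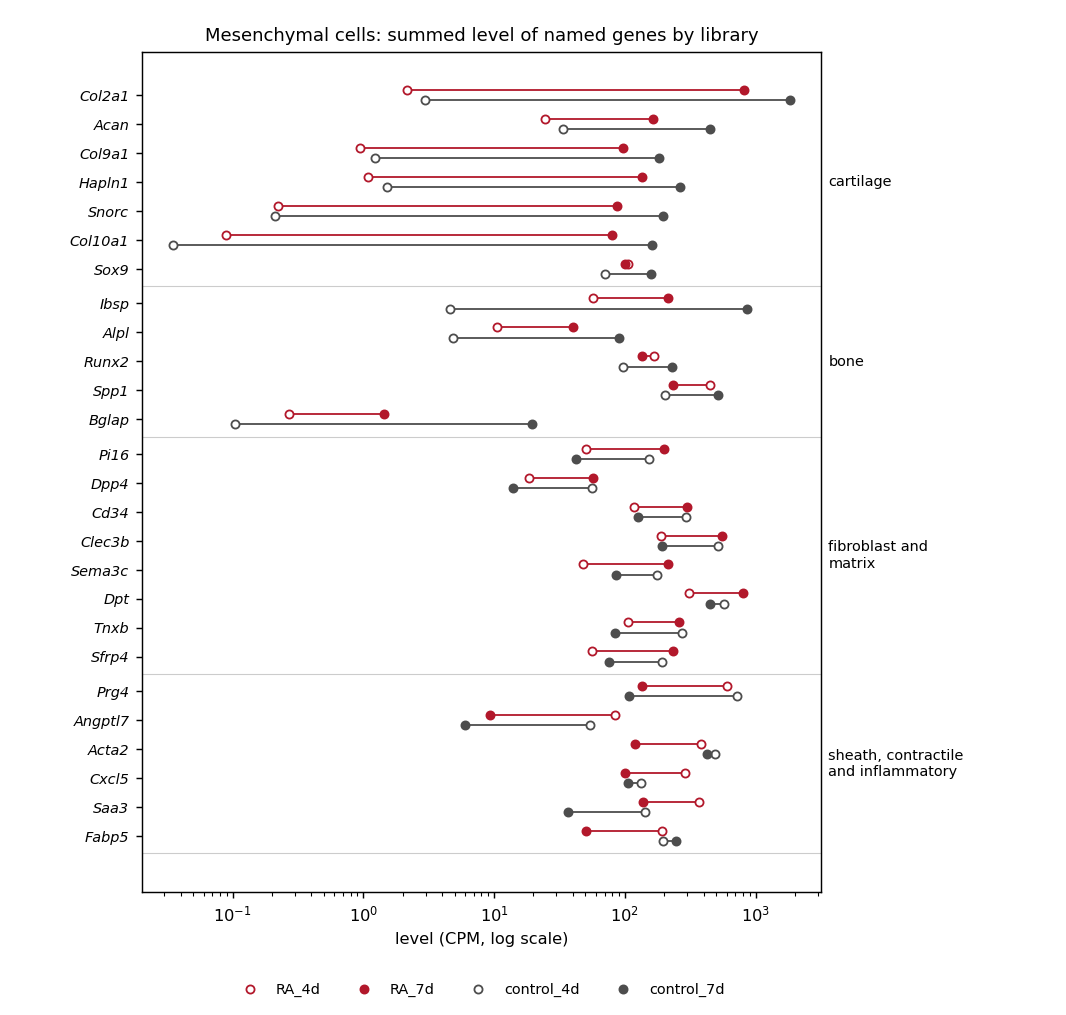
Level (CPM, log scale) of 26 genes in mesenchymal cells, with RA in red and control in grey, open circles for 4 dpf and filled circles for 7 dpf. Cartilage genes other than Sox9 run upwards in both courses and reach lower levels in RA_7d than in control_7d. Sox9 stays at 105 and 100 CPM in RA callus and runs upwards in control callus. Pi16 runs from 50.6 to 199 CPM in RA callus and from 153 to 42.3 CPM in control callus.

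Many cell cycle genes fell in all 3 compartments of RA callus. Of 18 genes 15 fell in haematopoietic, 9 in endothelial and 8 in mesenchymal cells, beside 3.33%, 1.22% and 3.26% of all genes read. The medians were -1.42, -1.05 and -0.99. In control callus none of the 18 passed 2-fold in any compartment, and the medians were -0.39, 0.04 and -0.10. Mki67, the Ki-67 antigen of dividing cells, was at 77.7 and 34.4 CPM in haematopoietic, 60.9 and 23.6 CPM in endothelial, and 34.1 and 10.7 CPM in mesenchymal cells. In control callus its values were 45.6 and 35.3, 51.3 and 53.5, and 29.1 and 20.8 CPM. After thinning 11.7% of endothelial cells of RA_4d and 4.35% of RA_7d held an Mki67 UMI.

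The 8 genes that fell in all 3 compartments (Birc5, Ccnb1, Ccnb2, Cenpf, Hmmr, Mki67, Tpx2 and Ube2c) act late in the cycle, in spindle, kinetochore and mitotic exit. The other 10 genes were Cdk1, Mcm2, Mcm3, Mcm4, Mcm5, Mcm6, Pcna, Rrm2, Top2a and Tyms, and most of them fell in haematopoietic cells. The 8 genes were picked by size of fall in all 3 compartments, and in mesenchymal cells they were the only genes of the list to fall. Whether the falls differed by phase of the cycle was not tested. Top2a went from 119.5 to 43.7 CPM in haematopoietic and from 74.0 to 38.85 CPM in endothelial cells. Pcna, the sliding clamp, was at 214 and 162 CPM in haematopoietic, 119 and 116 CPM in endothelial, and 68.7 and 68.6 CPM in mesenchymal cells. Mcm2, a helicase subunit, fell in haematopoietic cells from 26.3 to 9.27 CPM and was at 17.4 and 11.4 CPM and at 6.11 and 5.65 CPM in the others. With the looser cell filter the medians in endothelial and mesenchymal cells were -1.75 and -1.69.

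Because these 8 genes moved together, the stretches before the start of 4 of them are shown, from RefSeq on GRCm38.p6, 5′ to 3′ on the gene's strand and ending at the base before the start. Capitals mark CCAAT, which the factor NF-Y binds, and TTTGAA, a form of the cell cycle homology region, each on either strand (ATTGG and TTCAAA on the other strand). Ccnb1 and Ccnb2 encode the B-type cyclins, and Ube2c the enzyme that helps to destroy them.
Ccnb1 (chr13:100786487-100786636, minus strand, 2 CCAAT and 0 TTTGAA): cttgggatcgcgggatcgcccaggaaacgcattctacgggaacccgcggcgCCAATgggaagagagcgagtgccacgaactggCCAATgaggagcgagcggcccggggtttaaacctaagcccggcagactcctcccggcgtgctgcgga
Ccnb2 (chr9:70421555-70421704, minus strand, 3 CCAAT and 0 TTTGAA): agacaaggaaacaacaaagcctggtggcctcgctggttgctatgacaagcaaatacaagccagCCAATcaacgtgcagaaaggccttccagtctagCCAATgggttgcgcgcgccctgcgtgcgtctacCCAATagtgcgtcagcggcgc
Mki67 (chr7:135716380-135716529, minus strand, 1 CCAAT and 2 TTTGAA): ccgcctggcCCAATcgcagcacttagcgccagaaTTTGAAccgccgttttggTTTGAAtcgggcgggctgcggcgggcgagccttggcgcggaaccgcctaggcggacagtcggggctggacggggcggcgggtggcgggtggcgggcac
Ube2c (chr2:164769779-164769928, plus strand, 2 CCAAT and 1 TTTGAA): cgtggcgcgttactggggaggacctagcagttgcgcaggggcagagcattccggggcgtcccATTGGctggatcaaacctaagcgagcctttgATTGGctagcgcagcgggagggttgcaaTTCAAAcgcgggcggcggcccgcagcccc
In the 250 bases before the start CCAAT was found in 6 of 7 matched genes of these 8, in 8 of 9 matched genes of the other 10 of the list, and in 33.8% of 32851 promoters of the same length. TTTGAA was found in 3 of 7, 3 of 9 and 16.0%. The 3 genes with TTTGAA among the 8 were Ccnb2, Mki67 and Ube2c, though in Ccnb2 it lies before the stretch shown. A match of letters describes the stretch and is not a site.

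**Figure D4:**
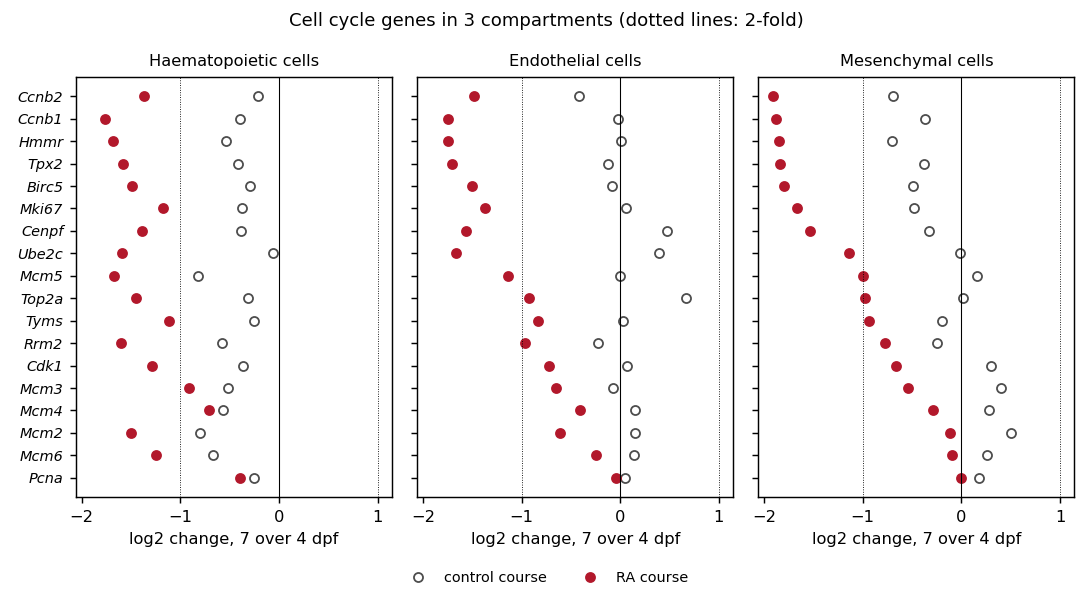
Log2 change of level from 4 to 7 dpf for 18 cell cycle genes in each compartment, with the RA course as filled red points and the control course as open points. All RA points lie at or below 0, 8 genes pass 2-fold in each of the 3 panels, and no control point passes it.

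Across genes read in both courses the log2 changes in RA and control callus had a Spearman correlation of 0.37 in haematopoietic, 0.27 in endothelial and 0.07 in mesenchymal cells, over 13954, 12739 and 15634 genes. Genes are not independent replicates and each course is 1 pair of libraries, so this describes the libraries. In mesenchymal cells 194 genes rose in both courses, 35.1% of those that rose in RA and 32.0% of those that rose in control callus. There 42 fell in both, 9.15% and 9.40%, and 56 rose in RA while falling in control callus. The lists whose medians lay farthest apart were the neutrophil and monocyte lists in haematopoietic cells and the fibroblast list in mesenchymal cells. No difference between the courses was tested.

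**Figure D5:**
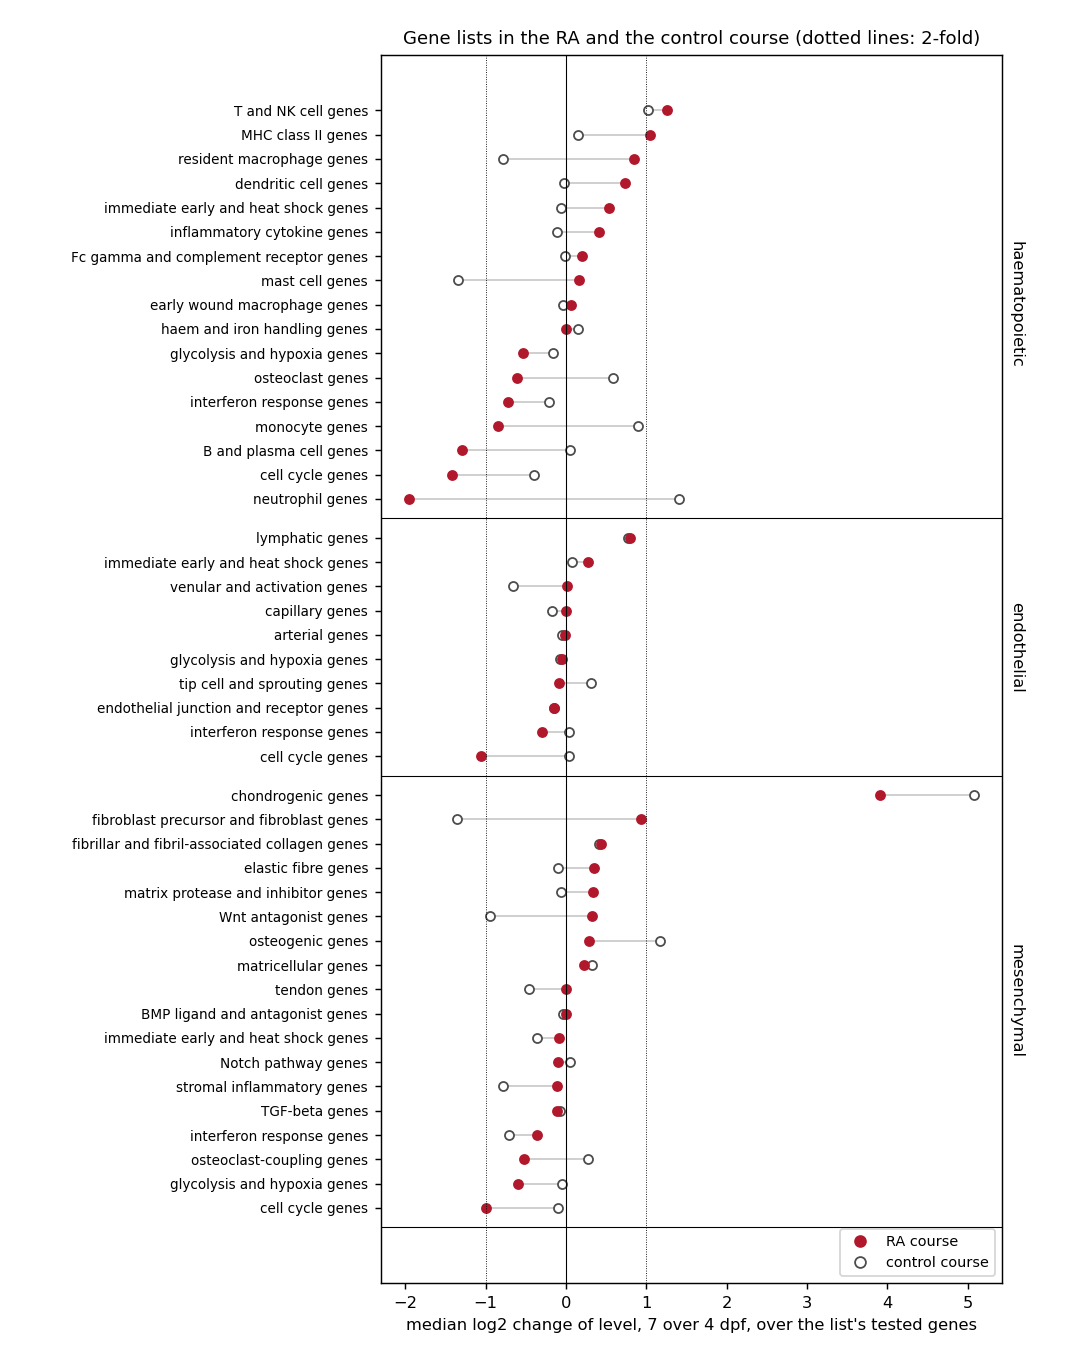
Median log2 change from 4 to 7 dpf over the genes read in each of 45 gene lists, by compartment, for the RA course (filled red) and the control course (open). Neutrophil genes lie at -1.95 in RA and 1.40 in control callus, fibroblast genes at 0.94 and -1.36, and most endothelial lists near 0 in both.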

How the data were processed

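The deposited files held raw UMI counts per gene and barcode (32285 features) for each library, made by the authors with 10x chemistry, Cell Ranger 7.0.1 and the mm10 genome per the submitters' processing notes. Whether doublets were removed before deposit is not given in the sources used here. Cells were filtered and gated as described above, 40 repeated gene symbols were left out, and UMIs were summed per compartment. Folds were ratios of CPM with no pseudocount, with exact intervals for a ratio of 2 Poisson counts, and a gene without a UMI in 1 library was set to a floor of 3 counts there. The calculation was tested on simulated data. With 1 library per condition no test was made. The members, gates and gene lists were chosen with earlier results of these data known. The text drew on the 8 largest rises and 8 largest falls per compartment among genes at 50 CPM or more and own to it, on the 3 genes of highest level and the 2 of largest change in each list, and on genes the paper names. Other genes were chosen after their values were seen. Some genes that this rule names are not reported here. Promoters came from RefSeq (GRCm38.p6), and gene positions from GENCODE M21 (GRCm38). Alternatives were TMM scaling, equal cell weights, other pseudocounts and UMI minimums, other filters and gates, leaving out a cell type within each compartment and, chosen after seeing the data, leaving out the top 4% of doublet scores per library, because the automatic Scrublet threshold marked 1 of 5896 barcodes of RA_4d. Python 3.11.15, numpy 2.4.6, scipy 1.17.1, pandas 2.3.3, scanpy 1.11.5 and matplotlib 3.10.9 were used.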

Additional observations from a re-analysis of the deposited data

Results flagged for a closer look

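Among the genes picked by the naming rule, 14 moved past 2-fold in opposite directions in RA and control callus between 4 and 7 dpf. Other genes described above did so too, among them Ngp in haematopoietic and Dpp4, Cd34 and Clec3b in mesenchymal cells. Each course is 1 library a side and the difference was not tested. In haematopoietic cells the log2 changes in RA and control callus were -2.12 and 1.51 for S100a8, -2.01 and 1.496 for S100a9, -2.07 and 1.60 for Camp, -1.68 and 1.07 for Chil3, and -1.99 and 1.23 for Fcnb. They were 1.57 and -1.02 for Ccl8, 2.27 and -1.63 for Ccl22 and -2.74 and 1.35 for Cpa3. For Mcpt4, 6.44 and -6.17 are against a floor of 3 counts in the library without a UMI, and give no more than the direction. In endothelial cells Hbb-bt, a haemoglobin chain, had 6.91 and -1.83, from the RA_4d library, whose gated cells were low in haemoglobin RNA. In mesenchymal cells the values were 2.14 and -1.04 for Sema3c, 1.97 and -1.85 for Pi16, 1.29 and -1.71 for Tnxb, and 2.05 and -1.34 for Sfrp4.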

How the results depend on the processing

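No paired analysis was possible because each condition had 1 library and the labels carry no replicate numbers, and for the same reason no replicate could be left out. Counts of genes past 2-fold depended on how low values were handled. With a pseudocount of 1 CPM 809 genes rose and 294 fell in haematopoietic cells, 101 fell in endothelial, and 274 rose and 215 fell in mesenchymal cells. With 10 CPM these were 142 and 59, 116 and 21 in endothelial, and 91 and 44. With a minimum of 10 UMIs they were 2380 and 843, 1425 and 482, and 1226 and 1178, and with 500 UMIs 346 and 204, 139 and 19, and 255 and 148. Among C1q macrophages alone 757 genes rose. With the looser cell filter 315 genes fell in endothelial and 951 in mesenchymal cells. In endothelial cells 355 rose without the highest doublet scores and 239 with stricter gates. The ratio of the 7 to the 4 dpf share was 0.415 for haematopoietic and 2.145 for mesenchymal cells with the looser filter, and 0.233 for haematopoietic and 1.16 for endothelial cells with stricter gates. The median of the B and plasma cell genes turned from -1.29 to 0.91 with a minimum of 500 UMIs and to 0.725 in C1q macrophages alone, where Ctsk (0.031) and Acp5 (0.44) turned as well, and Lpl in endothelial cells turned to -0.42 with stricter gates. Apart from the alternative's own selection of cells or genes, the cause was not tested. Of the list medians under alternatives, 436 moved by less than 1.5-fold, 11 by more, and 2 reversed. Values of named genes were less stable: 1734 were counted as like the main value, 843 as moved and 3 as reversed. Only values past 2-fold in the main setting are among these reversals. Smaller values changed sign without being counted so. The mesenchymal Wnt antagonist median went from 0.33 to -0.20 and Spp1 from -0.94 to 0.09 without chondro-osteogenic cells. Endothelial Mmrn1 went from 0.72 to -2.30 without cells that held a Prox1 UMI. Depth limits sparse genes most, above all in the endothelial sum of RA_4d, the shallowest with 9949752 UMIs.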

Other observations

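Cells outside the 3 gates were 8.30% of kept cells in RA_4d (341 cells) and 15.2% in RA_7d (1248 cells), and entered no comparison above. Their summed pericyte and smooth muscle markers stood at 2348 and 2819 CPM, skeletal muscle markers at 376 and 325 CPM, and Schwann cell markers at 237 and 708 CPM (control, 204 and 344). Cartilage and bone RNA was found among them as well. Col10a1, of hypertrophic chondrocytes, stood at 0.159 and 331 CPM in RA callus, against 0.0898 and 80.5 CPM in gated mesenchymal cells, and at 369 CPM in control_7d, where it had no UMI at 4 dpf. Ibsp stood at 5.87 and 719 CPM (control, 1.44 and 1063) and Col2a1 at 1.43 and 642 CPM (control, 0.824 and 1281). The mesenchymal gate therefore left out part of the cartilage and bone RNA in RA and control callus.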
